A study of Mus musculus with 12 samples.

Results

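Monocytes and macrophages were followed in injected mouse ears through 34 marker genes, a list compiled for these cells and matched by gene symbol to the rows of the count table. All 34 genes were found among the 50684 genes of the table, and all 34 passed the filter on low counts that left 19408 genes for the tests. RNA of ear skin of female C57BL/6 mice aged 8 weeks was sequenced. The groups received intradermal injections into the ear pinna of PBS as control, of IL-17A, of IL-36γ, or of IL-17A + IL-36γ, with 1 µg of each cytokine in a volume of 5 µl, and ears were taken after 4 days of treatment. Each group of the study held 5 mice, of which 3 were sequenced, so that the data comprised 12 libraries. The labels name no transgene or deletion, and the comparisons asked how each cytokine of the psoriatic network acted alone and together with the other.

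Monocytes leave the blood through chemokine receptors such as CCR2 and become macrophages in inflamed skin, where they take up particles through Fc, scavenger and lectin receptors and degrade them in lysosomes. The transcription factor PU.1 sets this lineage, and the receptor of colony stimulating factor 1 keeps its cells alive. Resident macrophages of the dermis express the receptor F4/80, encoded by Adgre1, while blood monocytes express Ly6C, encoded in part by Ly6c2. Several of the markers, among them Itgam, Fcgr4, Tyrobp, Fcer1g, Clec7a, Cd300lf, Lyz2 and Spi1, are also expressed by neutrophils, and Csf1 is produced by stromal and epithelial cells.

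Library totals ranged from 25293468 to 34759293 counts, and mice of a group varied by 14.2% as the common biological coefficient of variation. Levels are given as CPM, counts relative to the size of the library after scaling by TMM, and values of single mice follow the order of replicates 1, 2 and 3 of a group. SE is the standard error of a log2 fold change. The label of the tissue was checked with 8 keratinocyte genes, whose summed level lay between 19060 and 40580 CPM in all 12 libraries. The label of the gene list could not be checked with its own members, which define it, so only their counts are given. The lowest count of any member in any library was 8 (Fcgr4 in PBS replicate 1), and no member had a library with 3 counts or fewer. Skeletal muscle genes set PBS replicate 1 apart from the other PBS mice, with a summed level of 440.7 CPM against 3431 and 2982 CPM for 10 genes. With both cytokines they were low in replicates 1 and 2, at 426.8 and 261.7 CPM, against 1328 CPM in replicate 3.

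Promoter sequences are shown for the members whose windows hold the motif of PU.1, since 3 of these 4 genes were also the members with the highest log2 fold changes with both cytokines, which is a description and not a test. RefSeq promoter windows of the build GRCm38.p6 were matched by symbol for 23 of the 34 members, and each window runs from 250 bases before to 50 bases after a transcription start. The motif GAGGAAGT, searched on both strands, was present in 4 of the 23 members (17.4%), and in 997 of 27025 genes with a window (3.69%), where a gene with several windows counts when any of them holds it. These 4 members were Fcgr4, Ly6c2, Cd300lf and Ctss. A window of each is printed 5′ to 3′ along the strand of the gene, with the motif or its reverse complement in capitals.
Fcgr4, chr1:171018676-171018975, plus strand: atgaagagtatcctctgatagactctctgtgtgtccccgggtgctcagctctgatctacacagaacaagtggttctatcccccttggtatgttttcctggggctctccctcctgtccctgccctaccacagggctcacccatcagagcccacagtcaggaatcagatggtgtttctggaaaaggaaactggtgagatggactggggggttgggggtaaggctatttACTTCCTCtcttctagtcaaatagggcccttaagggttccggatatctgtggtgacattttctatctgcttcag
Ly6c2, chr15:75111888-75112187, minus strand: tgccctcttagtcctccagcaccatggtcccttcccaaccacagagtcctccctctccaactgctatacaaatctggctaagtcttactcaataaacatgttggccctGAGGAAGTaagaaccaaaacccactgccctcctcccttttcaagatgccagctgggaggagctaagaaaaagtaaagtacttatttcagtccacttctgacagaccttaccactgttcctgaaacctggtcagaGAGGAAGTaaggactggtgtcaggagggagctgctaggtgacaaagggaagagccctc
Cd300lf, chr11:115133943-115134242, minus strand: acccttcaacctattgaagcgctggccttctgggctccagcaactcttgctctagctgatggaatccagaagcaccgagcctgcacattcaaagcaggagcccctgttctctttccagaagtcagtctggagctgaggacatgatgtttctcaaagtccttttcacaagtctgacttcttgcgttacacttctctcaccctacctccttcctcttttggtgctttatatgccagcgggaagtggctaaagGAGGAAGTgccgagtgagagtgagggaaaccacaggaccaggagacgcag
Ctss, chr3:95526536-95526835, plus strand: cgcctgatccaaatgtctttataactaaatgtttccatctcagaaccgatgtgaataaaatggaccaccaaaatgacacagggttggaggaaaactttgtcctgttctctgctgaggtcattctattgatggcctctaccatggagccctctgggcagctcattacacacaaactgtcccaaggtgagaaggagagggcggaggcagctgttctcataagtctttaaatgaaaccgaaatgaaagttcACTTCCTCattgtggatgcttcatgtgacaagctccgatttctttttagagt
In the printed window of Ly6c2 the motif occurred at 2 places, beginning 142 and 8 bases before the start, in the direction of the gene. Another Ly6c2 window with a different start, chr15:75111922-75112221, was not printed. There the motif began 108 and -26 bases before the start, where a negative value lies after it. In Cd300lf the motif began at the start itself, in the direction of the gene. The reverse complement began 24 bases before the start in Fcgr4 and 2 bases before it in Ctss. The shorter motif GAGGAA, which lies inside the longer one, was found in 14 of the 23 members (60.9%) and in 31.3% of all genes with a window. A motif of NF-κB, which reads GGG, any 3 bases and TTCC, was found in 5 members (21.7% against 6.31%), namely Csf1, Fcgr3, Ly6c2, Marco and Ctsz. TTCNNNGAA, a motif of STAT factors, was found in 1 member (4.35% against 9.55%), Fcgr1. A match describes the letters of a window and was not tested for binding.

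With IL-36γ alone 27 of the 34 members were raised and none was lowered, which required an adjusted p below 0.05 and a log2 fold change beyond 1 in either direction, while 5.11% of all genes tested were raised and 1.98% lowered. With IL-17A + IL-36γ 25 members were raised and none was lowered, with 7.35% of all genes raised and 6.06% lowered. IL-17A alone raised 8 members and lowered none, with 1.07% of all genes raised and 1.03% lowered. The median log2 fold change of the members was 0.94 with IL-17A, 1.45 with IL-36γ and 1.77 with both cytokines, and the medians of all genes were 0.04, -0.02 and -0.03. These comparisons share the PBS mice. Without the fold threshold, 23, 32 and 32 members passed upward (7.44%, 17.3% and 23.7% of all genes). All 3 mice of a group lay above all 3 PBS mice for 26 members with IL-17A (19.6% of all genes), for 32 with IL-36γ (22.4%) and for 31 with both (27% of all genes). In whole ear RNA, a larger number of cells of a type and more RNA per cell cannot be told apart. The p-values measure the spread between mice of 1 experiment.

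**Figure D1:**
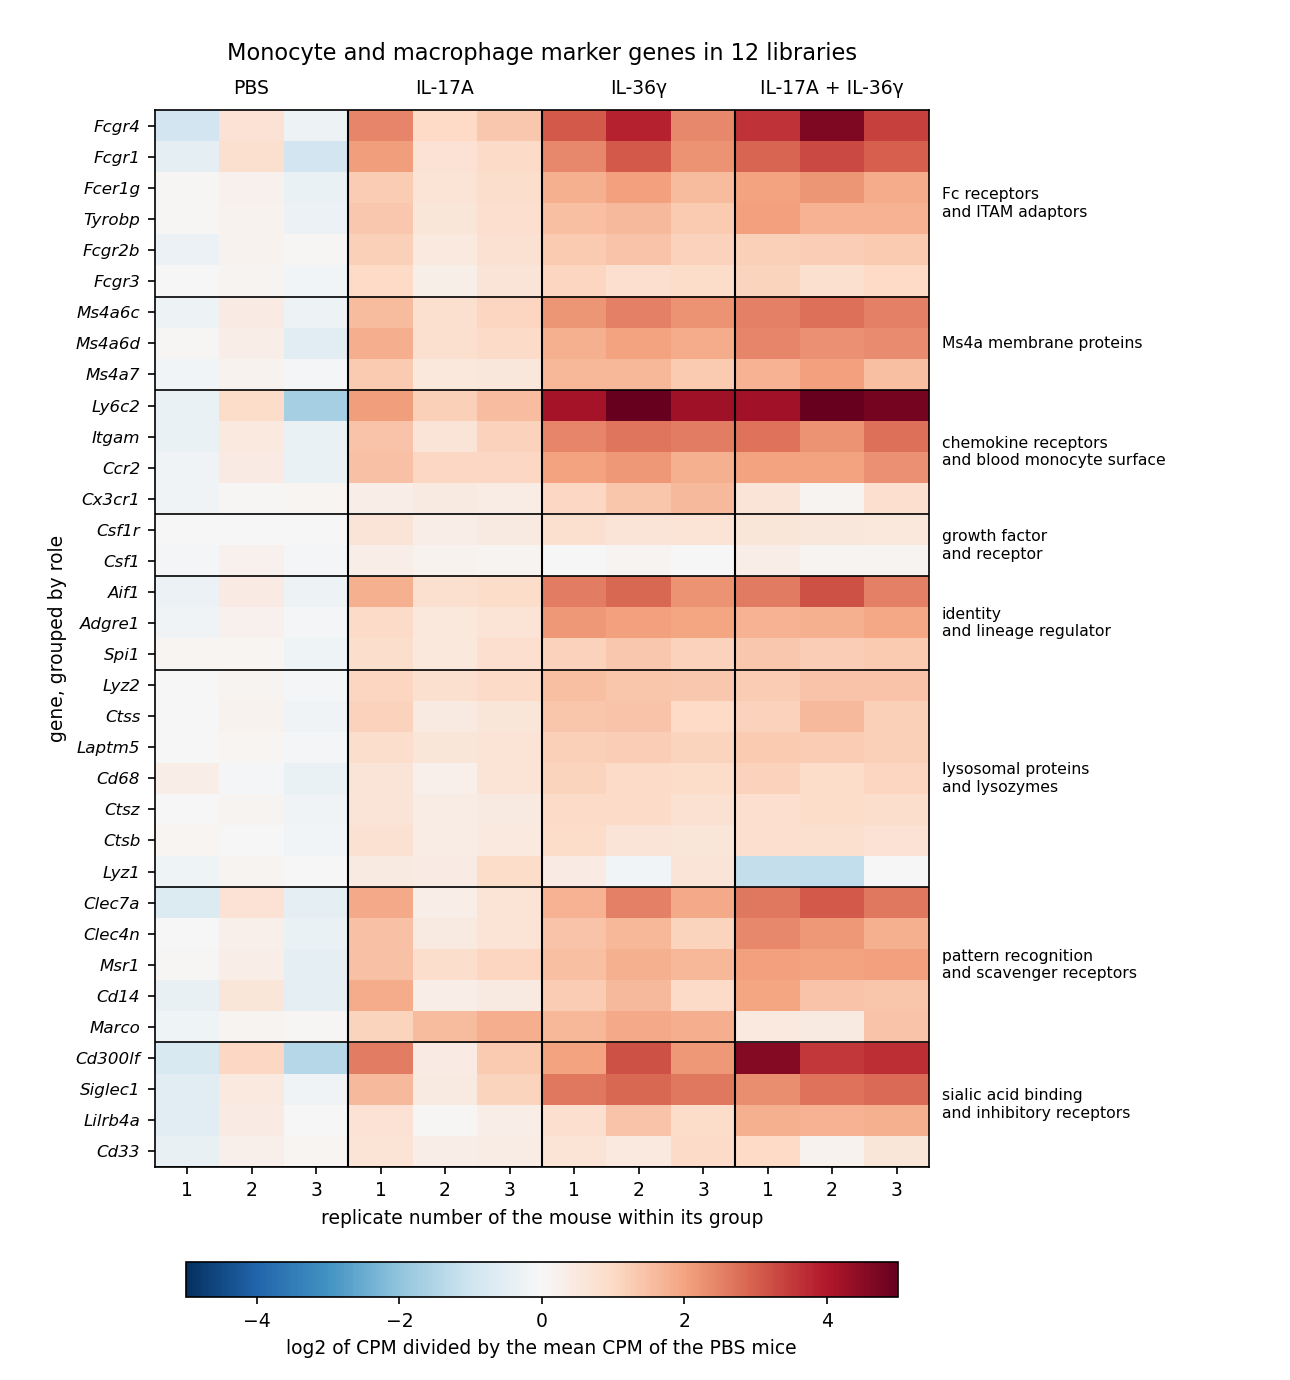
Level of each of the 34 members (rows, grouped by role) in each of the 12 libraries (columns), as log2 of CPM divided by the mean CPM of the PBS mice. Ly6c2, Fcgr4 and Cd300lf show the darkest red with IL-17A + IL-36γ, while Csf1 and Csf1r stay pale and Lyz1 turns blue in replicates 1 and 2 of that group.

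The number for IL-17A rested on few libraries. It was 0 without PBS replicate 3, where 10 genes of all were raised in place of 208, 13 without PBS replicate 2, where 122 were raised, and 0 in a fit of the PBS and IL-17A libraries alone, where 9 were raised. The 8 members raised with IL-17A were Ccr2, Itgam, Siglec1, Msr1, Marco, Ms4a6c, Ms4a6d and Aif1. With IL-36γ the 7 members that were not raised were Csf1, Csf1r, Lyz1, Fcgr3, Cd33, Ctsb and Ctsz. With both cytokines Cx3cr1 and Marco joined these 7. Without PBS replicate 1, the PBS mouse with few muscle counts, the numbers were 7 with IL-17A, 25 with IL-36γ and 25 with both. In that setting 375, 1103 and 1541 genes of all were raised, in place of 208, 992 and 1426. The count with IL-36γ ranged from 24 to 27 and that with both cytokines from 24 to 27 when each library was left out in turn.

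The identity genes and the regulator of the lineage were all raised by IL-36γ. Adgre1 (ENSMUSG00000004730, chr17:57358691-57483527 of GRCm38), which encodes the macrophage receptor F4/80, was at 31.6, 41.2 and 33.6 CPM in the PBS mice, at 69.2, 50.7 and 57.6 CPM with IL-17A, at 159.7, 147 and 141 CPM with IL-36γ and at 117, 123 and 136 CPM with IL-17A + IL-36γ. No 2 of the 4 groups overlapped, and the IL-36γ mice were the highest. That Adgre1 was higher with IL-36γ alone than with both cytokines was known when the list was chosen. The log2 fold change of Adgre1 against PBS was 2.07 (SE 0.13, adjusted p = 4.88e-06) with IL-36γ and 1.82 (SE 0.12, adjusted p = 4.63e-06) with both. With IL-17A it was 0.74 (SE 0.12, adjusted p = 0.0132), below the fold threshold. Aif1, which encodes the actin-binding protein IBA1 of macrophages and microglia, was at 2.91, 4.73 and 2.91 CPM in the PBS mice, 11.9, 6.05 and 6.60 with IL-17A, 20.6, 25.9 and 16.6 with IL-36γ and 21.2, 31.7 and 20.0 with both. The groups with IL-36γ lay far above the others and overlapped each other. Aif1 rose by a log2 value of 1.22 (SE 0.30, adjusted p = 0.0323) with IL-17A, 2.58 (SE 0.30, adjusted p = 0.000175) with IL-36γ and 2.79 (SE 0.30, adjusted p = 4.58e-05) with both cytokines. Spi1, which encodes PU.1, had the smallest change of this group of genes with IL-36γ and with both. It was at 14.2, 14.0 and 11.2 CPM in the PBS mice, 24.3, 19.0 and 23.4 with IL-17A, 29.2, 33.8 and 29.5 with IL-36γ and 33.4, 30.9 and 32.5 with both, and the mice with IL-36γ exceeded all others. Its log2 fold changes were 0.76 (adjusted p = 0.0106) with IL-17A, 1.23 (adjusted p = 4.82e-05) with IL-36γ and 1.3 (adjusted p = 1.66e-05) with both.

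Csf1r, the receptor of CSF1 and of IL-34, moved little. Levels were 154, 159 and 154 CPM in the PBS mice, 242, 195 and 214 CPM with IL-17A, 273, 244 and 249 CPM with IL-36γ and 235, 231 and 223 CPM with both. Every treated mouse exceeded every PBS mouse, and the mice with both cytokines lay below all mice with IL-36γ alone. The log2 fold changes were 0.48 (adjusted p = 0.0132) with IL-17A, 0.72 (adjusted p = 0.000132) with IL-36γ and 0.56 (adjusted p = 0.000214) with both, none of them past the fold threshold. Of the windows of 76 bases in its exons, 13.9% occur also in Hmgxb3, which lies on the opposite strand. Csf1, the ligand, was at 35.7, 44.1 and 35.6 CPM in the PBS mice, 48.9, 43.7 and 41.8 with IL-17A, 37.8, 42.1 and 37.5 with IL-36γ and 48.0, 42.8 and 42.8 with both, and each treated group overlapped PBS. With log2 fold changes of 0.22 (adjusted p = 0.15) with IL-17A and 0.21 (adjusted p = 0.0971) with both, it did not pass the test.

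**Figure D2:**
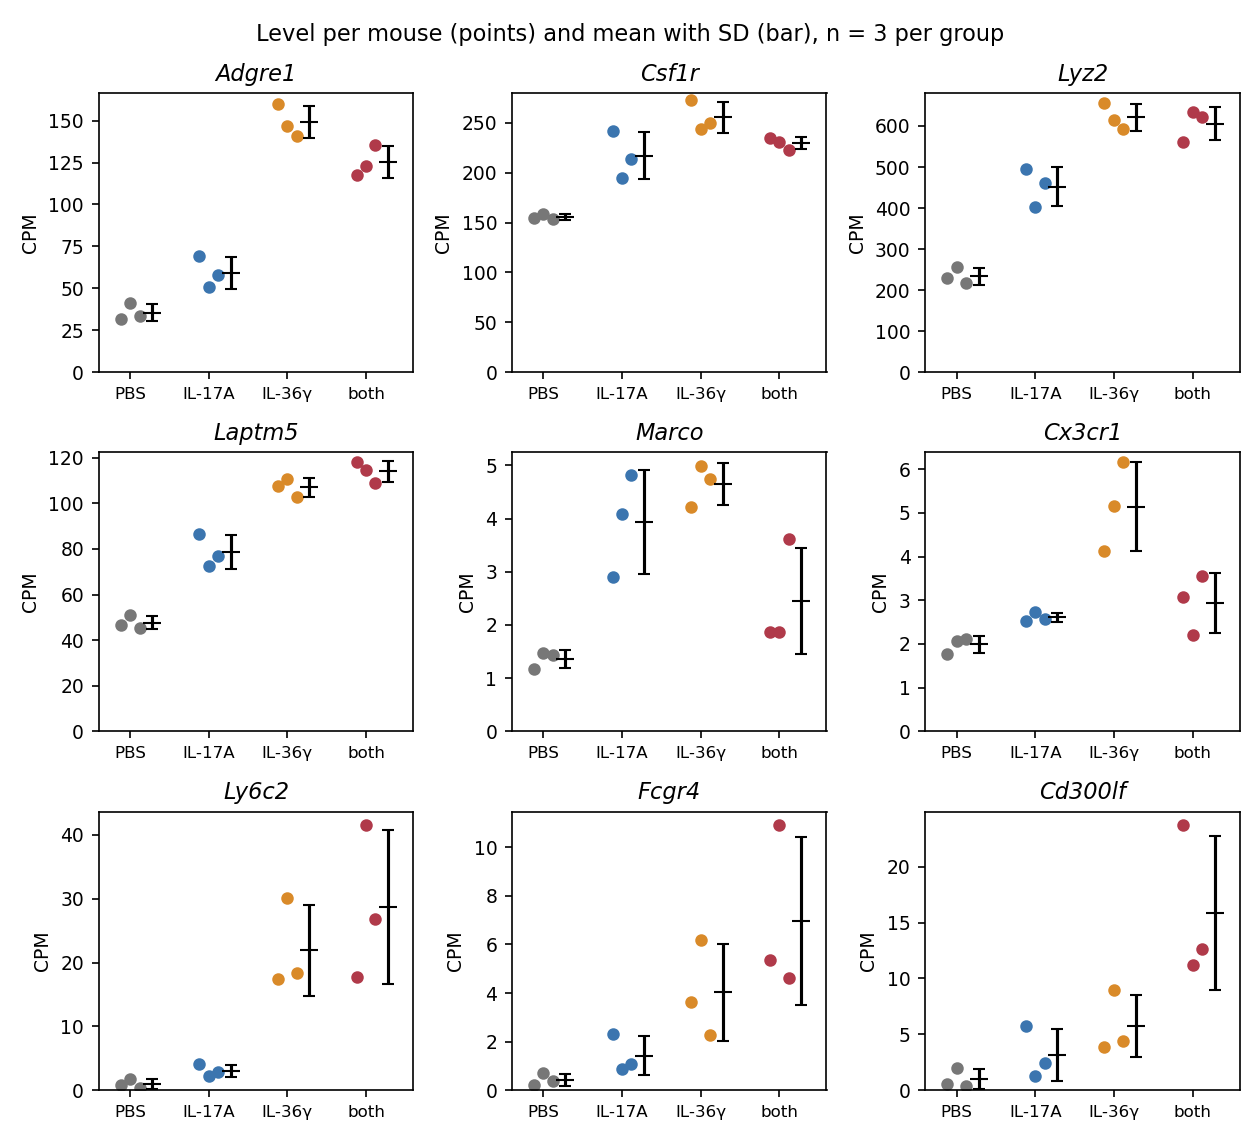
CPM of 9 members in each mouse (points, with CPM on a linear axis from 0) and the mean with SD of 3 mice (bar) for PBS, IL-17A, IL-36γ and both cytokines. Adgre1, Csf1r, Marco and Cx3cr1 are lower in all 3 mice with both cytokines than in those with IL-36γ alone, as are 11.3% of all genes. None of these differences passed the adjusted test. Ly6c2, Fcgr4 and Cd300lf reach their highest mean with both.

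Of 6 receptors for IgG and adaptors that signal for them, 5 were raised with IL-36γ and 5 with both cytokines. Fcgr4 (ENSMUSG00000059089, chr1:171018920-171029761 of GRCm38), an activating receptor for IgG, was at 0.222, 0.708 and 0.364 CPM in the PBS mice, 2.33, 0.864 and 1.09 with IL-17A, 3.63, 6.18 and 2.27 with IL-36γ and 5.34, 10.9 and 4.62 with both. All treated groups lay above PBS, and the groups with IL-36γ overlapped. It changed by a log2 value of 3.22 (SE 0.56, adjusted p = 0.00175) with IL-36γ and 4.00 (SE 0.56, adjusted p = 0.000186) with both, the latter being 16.0-fold, and the value of 1.71 (adjusted p = 0.08) with IL-17A did not pass. Fcgr3, another activating receptor, had the smallest change of the 6 genes, at 31.0, 34.9 and 29.1 CPM in the PBS mice, 63.5, 38.8 and 49.5 with IL-17A, 66.2, 56.6 and 59.6 with IL-36γ and 67.6, 54.8 and 63.1 with both. The 3 treated groups overlapped each other and lay above PBS. Log2 fold changes of 0.68 (adjusted p = 0.0245) with IL-17A, 0.94 (adjusted p = 0.0011) with IL-36γ and 0.96 (adjusted p = 0.000398) with both stayed under the fold threshold.

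Fcgr2b, the inhibitory IgG receptor, whose sequence is close to that of Fcgr3, was at 33.5, 46.5 and 42.3 CPM in the PBS mice, 94.0, 57.8 and 68.2 with IL-17A, 101, 110.3 and 89.6 with IL-36γ and 93.6, 96.9 and 102 with both. It was raised by a log2 value of 1.3 (adjusted p = 0.00027) with IL-36γ and 1.26 (adjusted p = 0.000126) with both, with 0.85 (adjusted p = 0.0176) with IL-17A. These genes share few windows of 76 bases, since 5.31% of those of Fcgr3 and 5.39% of those of Fcgr2b occur in other genes. Fcgr1, the high-affinity IgG receptor, had the next largest change after Fcgr4, with a mean of 4.17 ± 2.77 CPM (SD, n = 3) in the PBS mice and 34.9 ± 5.45 CPM with both, and log2 fold changes of 2.62 (adjusted p = 0.00156) with IL-36γ and 3.06 (adjusted p = 0.000258) with both. The adaptors Fcer1g and Tyrobp, which carry the ITAM signalling motif, had log2 fold changes with both of 2.04 (adjusted p = 1.67e-05) and 1.84 (adjusted p = 2.86e-05).

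All 4 genes of chemokine receptors and the surface of blood monocytes were raised with IL-36γ, and 3 of them with both cytokines. Ly6c2 had the largest change of all 34 members with IL-36γ and with both. Ly6c2 (ENSMUSG00000022584, chr15:75108158-75111970 of GRCm38) was at 0.775, 1.81 and 0.303 CPM in the PBS mice, 4.09, 2.23 and 2.82 with IL-17A, 17.4, 30.1 and 18.3 with IL-36γ and 17.8, 41.6 and 26.8 with both. The IL-17A mice lay above PBS, and the groups with IL-36γ lay far above both and overlapped each other. Its log2 fold changes were 4.49 (SE 0.49, adjusted p = 0.000116) with IL-36γ, which is 22.5-fold, and 4.88 (SE 0.50, adjusted p = 3.25e-05) with both, which is 29.4-fold, while 1.64 (adjusted p = 0.061) with IL-17A did not pass. Of its windows, 9.32% occur also in Ly6c1. Cx3cr1, the fractalkine receptor of patrolling monocytes and resident macrophages, had the smallest change with both cytokines in this role. Levels were 1.77, 2.07 and 2.12 CPM in the PBS mice, 2.52, 2.73 and 2.58 with IL-17A, 4.13, 5.15 and 6.16 with IL-36γ and 3.08, 2.19 and 3.54 with both. All IL-36γ mice exceeded all others. Cx3cr1 rose with IL-36γ by a log2 value of 1.37 (SE 0.20, adjusted p = 0.00058), whereas 0.57 (adjusted p = 0.0374) with both was below the fold threshold and 0.39 (adjusted p = 0.208) with IL-17A did not pass.

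Ccr2, the receptor by which monocytes follow CCL2, was raised in all 3 comparisons with PBS, by log2 values of 1.19 (adjusted p = 0.0118) with IL-17A, 2.0 (adjusted p = 5.59e-05) with IL-36γ and 2.11 (adjusted p = 1.86e-05) with both. Itgam, the integrin chain CD11b of monocytes and neutrophils, was raised likewise, by 1.10 (adjusted p = 0.0248), 2.56 (adjusted p = 5.59e-05) and 2.59 (adjusted p = 2.33e-05). For Itgam 65.2% of the windows occur also in Gm49368, a gene model that overlaps its exons on the same strand, so that its counts depend on how such reads were assigned.

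All 5 pattern recognition and scavenger receptors were raised with IL-36γ, and 4 of them with both cytokines. Clec7a, which encodes the beta-glucan receptor dectin-1, was at 5.34, 14.1 and 5.97 CPM in the PBS mice, 31.7, 10.7 and 13.5 with IL-17A, 28.1, 48.8 and 31.6 with IL-36γ and 52.1, 70.3 and 52.6 with both. The mice with both cytokines exceeded all others. It rose by 2.09 (SE 0.43, adjusted p = 0.00463) with IL-36γ and 2.78 (SE 0.44, adjusted p = 0.000421) with both on the log2 scale, and 1.13 (adjusted p = 0.1) with IL-17A did not pass. Marco (ENSMUSG00000026390, chr1:120474538-120505024 of GRCm38), a scavenger receptor that binds bacteria, behaved differently. It was at 1.16, 1.47 and 1.43 CPM in the PBS mice, 2.89, 4.09 and 4.83 with IL-17A, 4.23, 5.00 and 4.75 with IL-36γ and 1.87, 1.86 and 3.61 with both. Each cytokine alone put all mice above PBS, and the mice with both cytokines lay between PBS and IL-36γ and overlapped IL-17A. It rose by 1.54 (SE 0.27, adjusted p = 0.0151) with IL-17A and by 1.78 (SE 0.27, adjusted p = 0.00077) with IL-36γ, while 0.86 (SE 0.28, adjusted p = 0.0238) with both was under the fold threshold. Of the remaining receptors, Cd14, the coreceptor for lipopolysaccharide, had log2 fold changes of 1.32 (adjusted p = 0.0284) with IL-36γ and 1.61 (adjusted p = 0.00664) with both. The call of Cd14 with IL-36γ was lost without PBS replicate 1 or 3 and without IL-36γ replicate 1 or 2, with adjusted p up to 0.114. Msr1, the scavenger receptor A, had log2 fold changes of 1.65 (adjusted p = 0.000133) with IL-36γ and 2.04 (adjusted p = 1.94e-05) with both, and Clec4n, which encodes dectin-2, of 1.42 (adjusted p = 0.00235) and 2.13 (adjusted p = 9.43e-05).

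Receptors that bind sialic acid or inhibit signalling included the member with the largest difference between both cytokines and IL-36γ alone. Cd300lf (ENSMUSG00000047798, chr11:115116214-115133992 of GRCm38), a lipid-binding inhibitory receptor, was at 0.581, 1.98 and 0.364 CPM in the PBS mice, 5.75, 1.3 and 2.41 with IL-17A, 3.89, 8.92 and 4.41 with IL-36γ and 23.8, 11.2 and 12.7 with both. IL-17A overlapped PBS, and the mice with both cytokines exceeded all others. The log2 fold changes were 2.55 (SE 0.64, adjusted p = 0.0128) with IL-36γ and 4.01 (SE 0.65, adjusted p = 0.000485) with both, and 1.67 (adjusted p = 0.111) with IL-17A did not pass. The call with IL-36γ was lost without PBS replicate 3 and without IL-36γ replicate 2. Cd33, a sialic acid binding lectin, changed least in this role with IL-36γ and with both. At 18.7, 28.8 and 25.8 CPM in the PBS mice, 39.3, 30.7 and 31.8 with IL-17A, 38.8, 33.8 and 47.2 with IL-36γ and 49.0, 27.5 and 37.2 with both, the group with both cytokines overlapped PBS. Its log2 fold changes were 0.47 (adjusted p = 0.148) with IL-17A, 0.71 (adjusted p = 0.0258) with IL-36γ and 0.63 (adjusted p = 0.0281) with both. Siglec1, the sialoadhesin CD169 of tissue macrophages, rose by 1.13 (adjusted p = 0.0352) with IL-17A, 2.72 (adjusted p = 0.000105) with IL-36γ and 2.63 (adjusted p = 5.08e-05) with both. Its IL-17A mice overlapped PBS, and the call with IL-17A was lost in 8 of 19 alternative settings. The inhibitory receptor Lilrb4a rose by 1.09 (adjusted p = 0.00503) with IL-36γ and 1.75 (adjusted p = 0.000138) with both, and 40% of its windows occur also in neighbouring genes such as Lilr4b. Its call with IL-36γ was lost with library size only, without PBS replicate 1 and without IL-36γ replicate 2, where the value fell under the fold threshold.

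Of 7 lysosomal proteins and lysozymes, which include the most abundant members, 4 were raised with IL-36γ and 4 with both cytokines. Lyz2 (ENSMUSG00000069516, chr10:117277331-117282321 of GRCm38), the lysozyme of macrophages and neutrophils, was at 229, 256 and 216 CPM in the PBS mice, 495, 402 and 460.0 with IL-17A, 657, 615 and 592 with IL-36γ and 561, 635 and 622 with both. The groups with IL-36γ overlapped, and both lay above IL-17A, which lay above PBS. Log2 fold changes were 0.95 (SE 0.10, adjusted p = 0.00106) with IL-17A, just under the fold threshold, 1.41 (SE 0.10, adjusted p = 1.39e-05) with IL-36γ and 1.37 (SE 0.10, adjusted p = 5.62e-06) with both. Lyz1 is the neighbouring lysozyme gene, known from Paneth cells of the intestine, and was at 18.9, 23.9 and 22.1 CPM in the PBS mice, 29.3, 28.9 and 41.3 with IL-17A, 28.8, 19.5 and 33.7 with IL-36γ and 9.40, 9.14 and 21.9 with both. Replicates 1 and 2 with both cytokines were the lowest of the 12 mice, and the third was near PBS. Against PBS its log2 fold changes of 0.62 (adjusted p = 0.185), 0.34 (adjusted p = 0.414) and -0.68 (adjusted p = 0.0928) did not pass. Both lysozymes share 72 windows of 76 bases, which is 5.8% of those of Lyz2 and 6.06% of those of Lyz1.

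Laptm5 (ENSMUSG00000028581, chr4:130913125-130936141 of GRCm38), a lysosomal membrane protein of blood cells, was at 46.4, 51.0 and 45.5 CPM in the PBS mice, 86.8, 72.4 and 76.9 with IL-17A, 108, 111 and 103 with IL-36γ and 118, 115 and 109 with both, so that all mice with IL-36γ exceeded all others. It changed by 0.72 (SE 0.08, adjusted p = 0.00164) with IL-17A, 1.17 (SE 0.08, adjusted p = 1.12e-05) with IL-36γ and 1.26 (SE 0.08, adjusted p = 3.61e-06) with both. Of the cathepsins, the proteases of the lysosome, Ctss was raised with IL-36γ (1.29, adjusted p = 0.000797) and with both (1.33, adjusted p = 0.000252), while Ctsb (0.79, adjusted p = 0.000264 with both) and Ctsz (0.87, adjusted p = 3.68e-05 with both) remained under the fold threshold. Cd68, a glycoprotein of the lysosomal membrane, had a log2 value of 1.00 (adjusted p = 0.000886) with IL-36γ, at the edge of the fold threshold, and of 1.05 (adjusted p = 0.000267) with both.

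The 3 genes of the Ms4a cluster of membrane proteins, whose roles in macrophages are less well known, were raised with IL-36γ and with both cytokines. Ms4a6c was at 10.8, 17.1 and 10.9 CPM in the PBS mice, 38.7, 22.5 and 27.1 with IL-17A, 59.5, 74.9 and 61.1 with IL-36γ and 74.8, 87.4 and 74.6 with both. Ms4a6d was at 13.6, 16.4 and 8.79 CPM in the PBS mice, 45.0, 22.8 and 25.2 with IL-17A, 44.5, 52.0 and 46.4 with IL-36γ and 69.3, 63.3 and 66.4 with both. Ms4a7 was at 9.72, 12.3 and 10.2 CPM in the PBS mice, 26.5, 15.3 and 15.8 with IL-17A, 33.4, 33.8 and 26.7 with IL-36γ and 36.1, 44.5 and 30.6 with both. For each of the 3 genes the treated groups lay above PBS. With both cytokines the log2 fold changes were 2.61 (adjusted p = 1.12e-05) for Ms4a6c, 2.36 (adjusted p = 4.08e-05) for Ms4a6d and 1.79 (adjusted p = 7.15e-05) for Ms4a7, and with IL-36γ they were 2.33 (adjusted p = 4.82e-05) for Ms4a6c, 1.88 (adjusted p = 0.000369) for Ms4a6d and 1.55 (adjusted p = 4e-04) for Ms4a7. With IL-17A, Ms4a6c (1.19, adjusted p = 0.0151) and Ms4a6d (1.26, adjusted p = 0.0182) rose and Ms4a7 (0.84, adjusted p = 0.032) was under the fold threshold. For Ms4a6c 47.6% of the windows occur also in other genes, mainly in BE692007 on the opposite strand, so that its counts depend on whether strand was used in counting.

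Levels of different members were compared per kilobase of exon, as CPM per kilobase. Lyz2 and Ctss were the most abundant members in every group, with 178 and 93.5 CPM per kilobase in the PBS mice and 460.4 and 236 with both. Cd300lf was the lowest in the PBS mice with 0.190 CPM per kilobase, and Cx3cr1 the lowest with both with 0.653. Adgre1 moved from rank 12 of 34 in the PBS mice to rank 8 with IL-36γ and rank 9 with both. Ly6c2 moved from rank 32 to rank 23 in both groups with IL-36γ, while Csf1 moved from rank 14 to rank 25 and Lyz1 from rank 10 in the PBS mice to rank 22 with both.

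IL-36γ was compared directly with IL-17A. It gave 6 members raised and none lowered, with 1.25% of all genes raised and 0.366% lowered, and a median log2 difference of 0.52 over the members against -0.01 over all genes. The 6 members were Ly6c2, with a log2 difference of 2.85 (adjusted p = 0.00503), Siglec1 with 1.59 (adjusted p = 0.00926), Itgam with 1.46 (adjusted p = 0.00577), Aif1 with 1.36 (adjusted p = 0.0179), Adgre1 with 1.33 (adjusted p = 0.000742) and Ms4a6c with 1.15 (adjusted p = 0.0101). The count was 11 without IL-17A replicate 1, the IL-17A mouse with the highest level of 30 of the 34 members. There 306 genes of all were raised in place of 242. Without IL-17A replicate 2 the count was 4, with 54 genes of all raised. Cx3cr1 differed by 0.98 (adjusted p = 0.0148), just under the fold threshold. Without that threshold 13 members passed (4.37% of all genes).

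Adding IL-36γ to IL-17A raised 14 members and lowered 1, with 4.46% of all genes raised and 4.49% lowered. Without the fold threshold 24 were higher (15.1% of all genes). The largest differences were those of Ly6c2 (3.24, adjusted p = 0.000489), Cd300lf (2.34, adjusted p = 0.0103) and Fcgr4 (2.29, adjusted p = 0.00471). Adgre1 differed by 1.08 (adjusted p = 0.000214). The member lowered was Lyz1, with a log2 difference of -1.29 (SE 0.31, adjusted p = 0.00811), and all 3 of its levels with both cytokines were below those with IL-17A alone.

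Adding IL-17A to IL-36γ changed no member past the threshold. The quasi-likelihood test of edgeR and the likelihood ratio test of DESeq2 each called 0 members, with 0% of all genes raised and 0.0103% lowered in edgeR and 37 genes raised and 78 lowered in DESeq2. At an unadjusted p below 0.05, 4 members were higher and 3 lower, against 5.6% and 9.54% of all genes. The median log2 difference of the members was 0.10. All 3 mice with both cytokines lay above all 3 with IL-36γ alone for 8 members (9.33% of all genes), namely Csf1, Tyrobp, Msr1, Clec4n, Clec7a, Ms4a6d, Cd300lf and Lilrb4a, and below them for 4 members (11.3% of all genes), namely Adgre1, Csf1r, Cx3cr1 and Marco. Adgre1 differed by -0.25 on the log2 scale, with a 95% confidence interval of -0.51 to 0.01 (adjusted p = 0.348), so that the lower level seen in all 3 mice did not pass the test. The differences were -0.80 (adjusted p = 0.121) for Cx3cr1, -0.92 (adjusted p = 0.158) for Marco and -0.15 (adjusted p = 0.383) for Csf1r. Lyz1 differed by -1.01 (adjusted p = 0.182), with overlapping groups. Among the 8 members whose mice all lay above, the differences were highest for Cd300lf at 1.46 (adjusted p = 0.252), Clec4n at 0.71 (adjusted p = 0.219) and Clec7a at 0.69 (adjusted p = 0.442). The sign of 10 other members, all within 0.21 of zero, changed with 1 to 3 of 19 alternative settings.

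**Figure D3:**
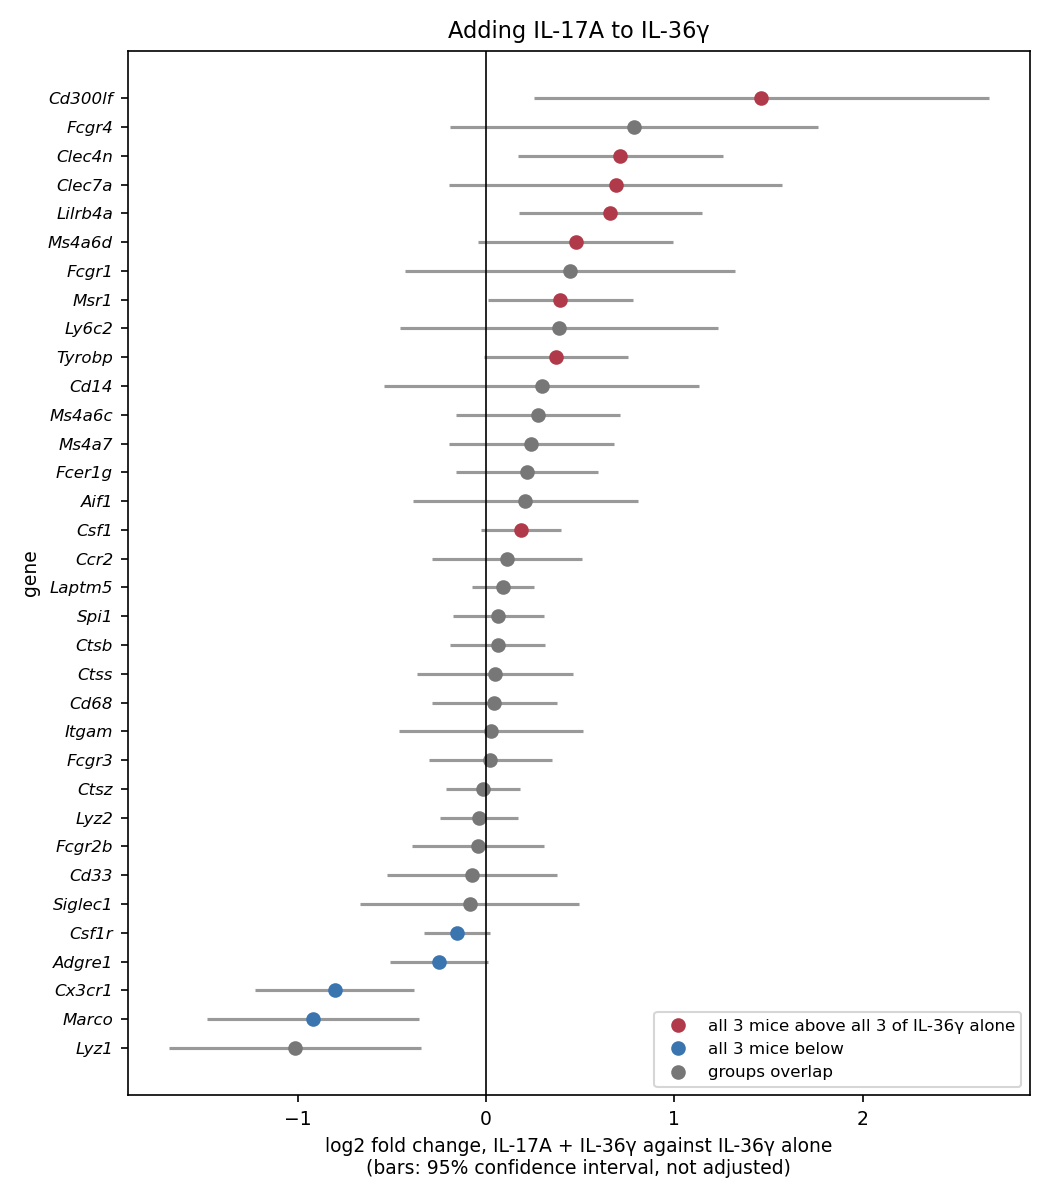
Log2 fold change of each member for IL-17A + IL-36γ against IL-36γ alone (points) with 95% confidence intervals that are not adjusted for the number of genes (bars), in red where all 3 mice lay above, blue where all 3 lay below and grey where the groups overlapped. Cd300lf lies furthest to the right at 1.46 and Lyz1 furthest to the left at -1.01, and no member passed the adjusted test.

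The interaction asked whether the change with IL-17A was the same in the presence and in the absence of IL-36γ. It was lower in the presence of IL-36γ for 33 of the 34 members, where 58.6% of all genes lay below 0, and the median was -0.75 against -0.07 for all genes. At an adjusted p below 0.05 it was below 0 for 5 members and above 0 for none, with 0.423% and 0.129% of all genes called. At an unadjusted p below 0.05, 23 members lay below 0 (13.9% of all genes). The 5 members were Marco with a log2 interaction of -2.46 (SE 0.37, adjusted p = 0.0412), Lyz2 with -0.99 (SE 0.13, adjusted p = 0.0242), Adgre1 with -0.99 (SE 0.17, adjusted p = 0.0429), Csf1r with -0.63 (SE 0.11, adjusted p = 0.0459) and Laptm5 with -0.63 (SE 0.11, adjusted p = 0.0429). IL-17A alone put all 3 mice above PBS for each of these 5 genes. The mice with both cytokines overlapped those with IL-36γ alone for Lyz2 and Laptm5. They lay below those with IL-36γ alone for Adgre1, Csf1r and Marco, as for 11.3% of all genes. None of these differences between both cytokines and IL-36γ alone passed the adjusted test. In the interaction Spi1 (-0.69, adjusted p = 0.0636) and Cx3cr1 (-1.20, adjusted p = 0.065) did not pass, and Lilrb4a was the only member above 0 (0.26, adjusted p = 0.66). The 5 interaction calls were close to the threshold. With library size only as the scaling, which moved the median of all genes from -0.07 to 0.11, none of the members was called and 2 genes of all were lowered in place of 82. The count ranged from 0 without PBS replicate 3, with 4 genes of all lowered, to 10 without PBS replicate 1, with 1013 lowered.

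**Figure D4:**
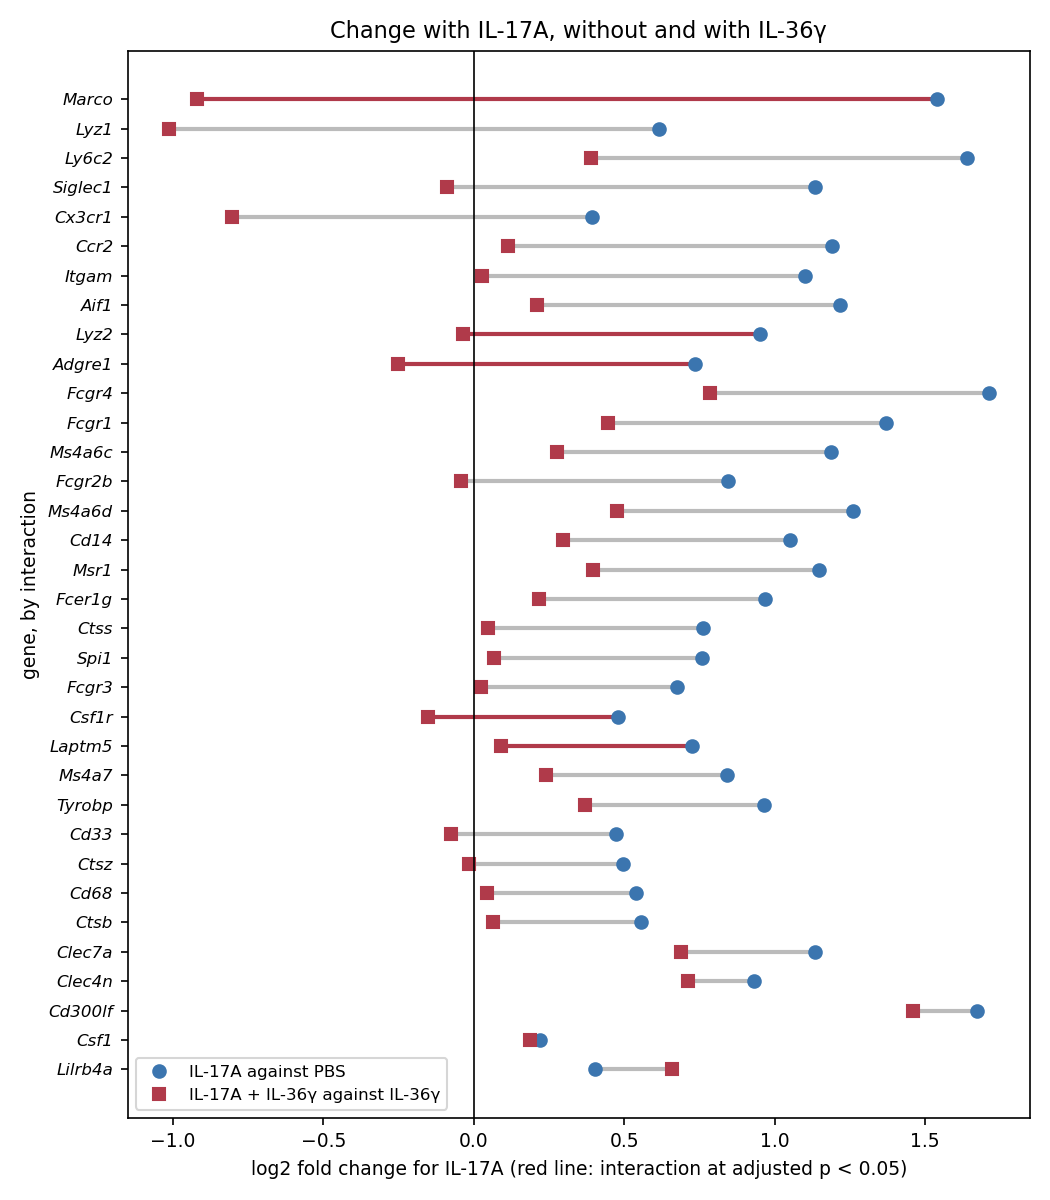
Log2 fold change for IL-17A without IL-36γ (blue points, IL-17A against PBS) and with IL-36γ (red squares, both cytokines against IL-36γ) for each member, joined by a line that is red where the interaction passed an adjusted p of 0.05. The square lies to the left of the point for 33 of 34 members, and Marco at the top has the longest line.

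On the linear scale of CPM, effects that merely add also give a negative log2 interaction. The mean level with both cytokines plus that of PBS was therefore set against the sum of the means with each cytokine alone. It was below that sum for 26 members, as for 53.1% of all genes, by more than 2 standard errors for 12 members (14.6% of all genes), and above it by more than 2 standard errors for 1 (12.1% of all genes). Lyz2 lay -234 ± 41.8 CPM (difference ± standard error) from the sum and Adgre1 -47.5 ± 9.91 CPM. Lilrb4a was the member above it, at 11.9 ± 5.03 CPM.

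Genes of other cells and of the myeloid pathways were read beside the members. The summed level of the 34 members was 1298 to 1562 CPM in the PBS mice, 2033 to 2807 with IL-17A, 3020 to 3427 with IL-36γ and 3383 to 3536 with both. The list of 12 resident macrophage genes ran from 654 to 765 CPM in the PBS mice, 980 to 1392 with IL-17A, 1243 to 1535 with IL-36γ and 1036 to 1297 with both. Of these 12 genes 6 were raised with IL-36γ and 3 with both, where 1 was lowered. C1qb, a complement component, rose by 1.47 (adjusted p = 9.93e-05) with both, and Folr2, a folate receptor, by 1.21 (adjusted p = 0.000557), while Timd4, a receptor for dying cells, fell with a log2 value of -1.65 (adjusted p = 0.0015). In the comparison of both with IL-36γ alone, all 12 had a log2 value below 0 and none passed. In that comparison 10 of the 34 members and 9579 of the 19408 genes tested lay below 0. C1qa had an interaction of -1.07 (adjusted p = 0.0429). Mature neutrophil genes, of which 10 of 12 passed the filter, summed to 114 to 203 CPM in the PBS mice, 504 to 1001 with IL-17A, 2396 to 4932 with IL-36γ and 7708 to 10150 with both, with S100a9 and S100a8 at log2 values of 8.11 (adjusted p = 7.38e-05) and 8.07 (adjusted p = 6.79e-05) with both. These 2 genes, which inflamed keratinocytes also express, made up most of the sum in the groups with IL-36γ, and Il1r2 held 87.8 to 102 CPM of it in the PBS mice. Ly6g, which marks neutrophils, had no count in the PBS mice and 0.549 to 0.858 CPM with both. Without S100a8, S100a9 and Il1r2, a choice made after the values were seen, the sum was 15.4 to 24.5 CPM in the PBS mice, 29.4 to 67.6 with IL-17A, 62.6 to 92.7 with IL-36γ and 106 to 213 with both. Of the 10 genes, 8 were raised with both and 7 with IL-36γ, where 1 was lowered, Ltf, which was under 1 CPM in all 12 libraries. Il1r2 lay below all PBS mice with both, at -0.29 (adjusted p = 0.0678). The part of neutrophil genes in the changes of Itgam, Fcgr4, Ly6c2, Cd300lf and the other shared genes was not tested.

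**Figure D5:**
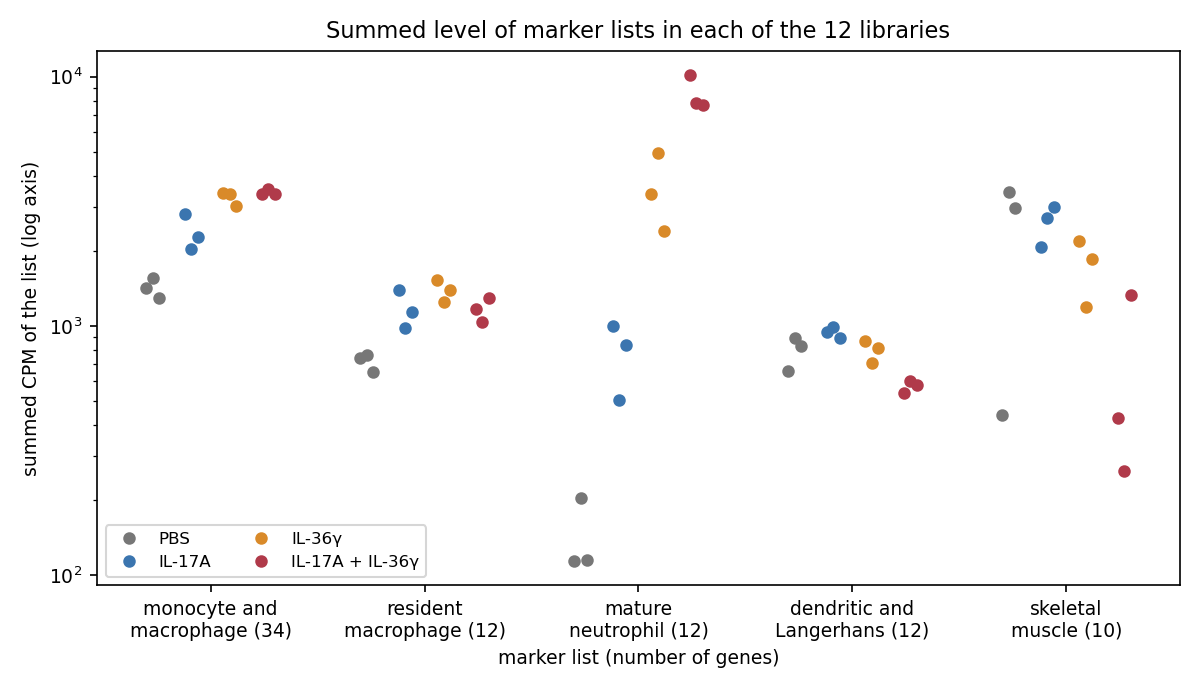
Summed CPM of 5 marker lists in each of the 12 libraries on a log axis, with 1 point per mouse in the order of replicates. The 34 members lie between 3020 and 3536 CPM in both groups with IL-36γ, while neutrophil genes lie higher in every mouse with both cytokines than in any other mouse.

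The 12 dendritic and Langerhans cell genes summed to 658 to 893 CPM in the PBS mice and 538 to 601 CPM with both cytokines. Of these, 2 were lowered and 1 raised with both, and Cd207 (langerin) fell with a log2 value of -3.28 (adjusted p = 3.25e-05). The 10 T and NK cell genes summed to 35.6 to 37.6 CPM in the PBS mice and 36.2 to 37.2 CPM with both, with 4 raised and 1 lowered. With both cytokines 2 of 2 B cell genes tested were raised, 0 of 6 mast cell genes were raised or lowered, and of 8 keratinocyte genes 2 were raised and 1 was lowered. Muscle genes summed to between 441 and 3431 CPM in the PBS mice and between 262 and 1328 CPM with both, and 3 of 10 were lowered with both. In that group replicate 3 had the most muscle counts. It was also the highest of its group for 8 members, Lyz1 and Marco among them. The part of muscle genes in the members' values was not tested.

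Genes that act around these cells were counted by list, beside 1.07% of all genes raised with IL-17A, 5.11% with IL-36γ and 7.35% with both. Of 7 chemokines that attract monocytes, 3 were raised with IL-17A, 3 with IL-36γ and 6 with both, led by Ccl3 (2.86, adjusted p = 0.00903), Ccl4 (2.61, adjusted p = 0.0249) and Ccl8 (2.31, adjusted p = 8.11e-05). Of 12 genes of the ITAM pathway and its receptors, 1, 6 and 10 were raised in the same order, led by Sirpb1a (4.32, adjusted p = 8.97e-06) and the receptors Trem1 (3.31, adjusted p = 0.00744) and Trem3 (3.28, adjusted p = 0.00717). Of 5 growth factors and receptors tested, 3 were raised with both, namely Csf3r (4.24, adjusted p = 2.99e-05) and its ligand Csf3, which act in the neutrophil lineage and of which Csf3 had no count in 2 of the 3 PBS mice, and Csf2rb (1.21, adjusted p = 0.000146), the shared receptor chain for GM-CSF. The gene lowered was Il34 (-1.11, adjusted p = 4.23e-05), the other ligand of Csf1r, which was named after its value was seen. Of 9 myeloid transcription factors 1 was raised with both, Irf8 (1.62, adjusted p = 2.99e-05), which acts in monocyte development, and Irf5 (0.72, adjusted p = 2.99e-05) was under the fold threshold.

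Mice of a group differed in most members together. PBS replicate 2 held the highest level of its group for 30 of the 34 members, IL-17A replicate 1 for 30 and IL-36γ replicate 2 for 24, while with both cytokines the highest level fell to replicates 1, 2 and 3 for 15, 11 and 8 members. The median deviation of the members from their group mean on the log2 scale reached 0.22 in PBS replicate 2 and 0.34 in IL-17A replicate 1. In the same 3 mice the summed neutrophil genes were also the highest of their group, at 203, 1001 and 4932 CPM.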

How the data were processed

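Total RNA of mouse ears was sequenced as stranded paired-end libraries with reads of 76 bases. The deposited values are raw counts per Ensembl gene, which the authors made with STAR 2.5.2b on mm10 and featureCounts of Subread 1.5.1, per the submitters' processing notes. The strand setting and the annotation release of the counting are not given in the sources used here. The authors' tables of DESeq2 comparisons hold fold changes and p-values and served here only to pair gene symbols with Ensembl identifiers. Library totals were 25293468 to 34759293 counts, and 16630 of 50684 genes had no count.

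Counts of the 4 groups were fitted together with the quasi-likelihood test of edgeR 4.0.16 (R 4.3.3) after filterByExpr with a minimum count of 10, which kept 19408 genes, and TMM scaling. Benjamini-Hochberg adjustment ran over all genes tested, and a call required an adjusted p below 0.05 with a log2 fold change beyond 1 in either direction, or the adjusted p alone for the interaction. The members and the other lists were chosen with earlier results of these data known. Among these was the higher level of Adgre1 with IL-36γ alone than with both cytokines. For Adgre1 the comparison of these groups and the interaction are therefore not independent of that choice. All 34 members are named. Values of every library are given for Adgre1, for members called in the interaction, for the highest and the lowest of each role after both cytokines, and for the pairs Lyz1 and Lyz2, Fcgr2b and Fcgr3, Ms4a6c and Ms4a6d, and Csf1 and Csf1r. From the other lists up to 3 genes with the largest absolute change were named. Positions, lengths and shared windows of 76 bases came from the GENCODE annotation of GRCm38. The share of windows is over all annotated transcripts of a gene.

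In simulated counts of 19090 genes the test found 200 of 200 genes changed by a log2 value of 2, with 1 false call, for both cytokines against PBS, and 200 of 200 with 7 false calls for the interaction. The simulation gave every gene the same common dispersion and changed only genes above 1 CPM. It therefore cannot show how the test does for smaller changes, such as most called interactions, or for genes that vary more between mice. Replicates of a group differed beyond sampling noise, with a chi-square per gene of 6.56 to 58.4. Pairs with replicate 1 gave 58.4 and 45.2 in PBS and 37.4 and 48.7 with IL-17A. The pair of replicates 2 and 3 gave 6.56 in PBS and 8.46 with IL-17A. In the groups with IL-36γ all pairs lay between 19.6 and 24.2. The labels name no batch, and the labels assign every library to a group. Alternatives were the size factors of DESeq2 1.42.0 (RLE), library size only, no filter or a strict one, the DESeq2 likelihood ratio test, a fit of only the groups compared, adjusted p alone, a replicate block, and leaving out each library.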

Additional observations from a re-analysis of the deposited data

Results flagged for a closer look

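The effect of IL-17A differed between ears with and without IL-36γ for 5 members, by the interaction term of the edgeR fit. The log2 difference of the effects was -2.46 for Marco (adjusted p = 0.0412), -0.99 for Lyz2 (adjusted p = 0.0242), -0.99 for Adgre1 (adjusted p = 0.0429), -0.63 for Csf1r (adjusted p = 0.0459) and -0.63 for Laptm5 (adjusted p = 0.0429). In each gene the effect of IL-17A was positive in ears without IL-36γ. The interaction of Adgre1 includes the difference between both cytokines and IL-36γ alone that was known when the list was chosen. Over 18 alternatives the value ranged from -2.84 to -2.25 for Marco with adjusted p from 9.37e-07 to 0.129, from -1.04 to -0.80 for Lyz2 with 3.04e-10 to 0.107, from -1.09 to -0.80 for Adgre1 with 4.34e-05 to 0.145, from -0.67 to -0.45 for Csf1r with 2.82e-06 to 0.148, and from -0.67 to -0.45 for Laptm5 with 1.58e-06 to 0.145. The call was lost in 9 of the 18 for Marco, 6 for Lyz2, 11 for Adgre1, 12 for Csf1r and 12 for Laptm5. The sign held in all 18 for these 5 genes. Groups of 3 mice were not searched for outlying samples.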

How the results depend on the processing

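Counts of members raised or lowered stayed within 1.5 times in 249 instances and moved further in 27. IL-17A against PBS gave 5 raised members with library size only, 0 in a fit of those groups alone and 23 with adjusted p alone. With adjusted p alone, both cytokines against IL-17A gave 24 raised and IL-36γ against IL-17A gave 13. The interaction lowered 2 members with RLE, 0 with library size only, 10 without a filter, 11 in DESeq2 and 11 with the replicate block, where 30, 2, 295, 1425 and 492 genes of all were lowered (82 in the reported fit), and could not be fitted on the groups compared alone. The cause of these shifts was not tested. Leaving out each library gave 0 to 13 members raised for IL-17A against PBS and 24 to 27 for IL-36γ. For both against PBS it gave 24 to 27 raised and 0 to 1 lowered. For both against IL-36γ it gave 0 to 0 raised and 0 to 2 lowered. The 2 were lowered without replicate 3 of both cytokines, where 36 genes of all were lowered in place of 2. For both against IL-17A it gave 12 to 19 raised and 1 to 2 lowered. The 12 came without IL-17A replicate 2 and the 19 without replicate 1, with 700 and 1020 genes of all raised (865 in the reported fit). For IL-36γ against IL-17A it gave 4 to 11 raised in the same settings, with 54 and 306 genes of all raised (242 in the reported fit). The interaction had 0 to 10 members lowered in these fits. The median log2 value of the members ranged over these from 0.64 to 1.04, 1.39 to 1.62, 1.63 to 1.95, 0.07 to 0.18, 0.78 to 1.12 and 0.40 to 0.88 for the comparisons in this order. Of single gene values 2760 kept direction and call, 124 lost the call, 42 gained it and none of those given reversed, Cd68 with IL-36γ losing it in 12 settings. Over all 34 members, signs changed under some setting for 10 in both against IL-36γ, 4 in the interaction, 2 in both against IL-17A and 1 in IL-36γ against PBS. Members below the sum of the effects of each cytokine numbered 26 with RLE and 24 with library size only, settings added after seeing the data. Library size only moved the median of all genes to -0.13 with IL-17A, -0.16 with IL-36γ and -0.17 with both. Replicate numbers are shared between groups, and the deviations of same-numbered mice correlated with r above 0.1 in 9 of 18 pairs (-0.199 to 0.352), while 8 of 12 libraries correlated best with their own number. Between IL-36γ and both cytokines all 3 pairs were above 0.1 (0.128, 0.188 and 0.240), and the block there also gave 0 members raised and 0 lowered. Apart from the interaction the block moved no count of members by more than 1.5 times. With 3 mice a group, the changes of Cd300lf, Fcgr4 and Ly6c2 had the largest standard errors of the members for both against PBS.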
